A study of Mus musculus with 6 samples.

Results

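A list of 35 mouse genes of glycolysis and of the cellular response to low oxygen, named gene by gene with earlier results of these data known, was compared between tumors of the cecum and tumors of the duodenum. The list held 21 genes of glucose uptake, glycolysis, lactate handling and its control, and 14 genes of the hypoxia response. Of the 35, 32 had a probe set, an array feature made of several short probes, naming that gene alone, out of 12394 such genes on the array, and 30 of these were tested. Of the other 2, Eno2 was too dim and Gapdh is named alone by array controls only. The samples were 3 cecal and 3 duodenal tumors from 6 different mice, each on 1 array. Every mouse carried the Apc1638N allele, which disrupts the tumor suppressor Apc and leads to tumors of the gut, and was deficient in the retinoblastoma gene Rb1, so that both sites share these alterations. The labels give no treatment, age, strain or way in which Rb1 was lost, and say that the duodenal group may contain tumors of the pylorus, where the stomach empties into the gut. Normal tissue was not analysed here, and the 2 sites differ as normal tissues too.

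Glycolysis splits glucose into pyruvate, and cells that make lactate from pyruvate can run it without oxygen. In oxygenated cells, prolyl hydroxylases mark the alpha subunits of hypoxia-inducible factor (HIF) for destruction. In low oxygen these subunits persist, pair with the beta subunit Arnt and raise transcription of glycolytic genes, glucose transporters and other targets. HIF activity is set largely at the level of the protein, which the arrays do not measure. The gut lining is known for steep oxygen gradients between the tissue and the lumen.

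The HIF complex is known to bind DNA at the core ACGTG or GCGTG, and promoters are shown here for the members with the largest rises, for the HIF subunit gene itself and for the member that fell. Windows of 300 bases, from 250 before to 50 after a gene's annotated start, come from RefSeq (mouse build GRCm38.p6) and are written 5′ to 3′ on the gene's strand, with matches to either core on either strand in capitals. ACGTG overlaps the E-box CACGTG, and where that palindrome occurs both strands match.
Hk2, chr6:82774405-82774704, minus strand: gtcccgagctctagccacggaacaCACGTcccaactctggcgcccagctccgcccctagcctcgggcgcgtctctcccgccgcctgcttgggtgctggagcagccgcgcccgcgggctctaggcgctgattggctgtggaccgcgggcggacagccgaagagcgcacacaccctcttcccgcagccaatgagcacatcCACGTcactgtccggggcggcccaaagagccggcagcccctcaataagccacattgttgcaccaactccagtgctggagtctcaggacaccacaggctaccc
Slc2a1, chr4:119108495-119108794, plus strand: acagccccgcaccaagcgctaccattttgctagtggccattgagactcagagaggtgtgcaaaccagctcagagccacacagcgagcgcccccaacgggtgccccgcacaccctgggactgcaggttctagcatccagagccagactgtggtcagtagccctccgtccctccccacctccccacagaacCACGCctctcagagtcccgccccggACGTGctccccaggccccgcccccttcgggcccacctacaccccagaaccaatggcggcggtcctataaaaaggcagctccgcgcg
Higd1a, chr9:121857747-121858046, minus strand: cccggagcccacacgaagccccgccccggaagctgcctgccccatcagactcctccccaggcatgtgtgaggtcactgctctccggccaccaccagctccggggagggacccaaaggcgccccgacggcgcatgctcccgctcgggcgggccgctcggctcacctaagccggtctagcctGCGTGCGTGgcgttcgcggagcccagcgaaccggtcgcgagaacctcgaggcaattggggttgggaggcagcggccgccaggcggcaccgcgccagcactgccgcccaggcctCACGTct
Hif1a, chr12:73907617-73907916, plus strand: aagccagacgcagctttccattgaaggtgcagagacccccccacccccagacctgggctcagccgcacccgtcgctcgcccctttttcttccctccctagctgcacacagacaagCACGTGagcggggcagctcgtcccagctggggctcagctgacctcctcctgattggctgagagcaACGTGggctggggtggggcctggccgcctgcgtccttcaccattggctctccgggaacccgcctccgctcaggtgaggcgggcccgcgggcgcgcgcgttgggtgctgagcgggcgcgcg
Aldoc, first of 2 windows, chr11:78322823-78323122, plus strand: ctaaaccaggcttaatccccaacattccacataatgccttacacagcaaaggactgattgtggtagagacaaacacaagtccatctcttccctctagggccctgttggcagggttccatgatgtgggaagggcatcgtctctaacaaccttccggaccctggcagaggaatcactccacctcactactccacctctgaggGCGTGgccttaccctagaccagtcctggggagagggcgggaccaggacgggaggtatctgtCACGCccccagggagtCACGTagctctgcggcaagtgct

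Of the 35 members, 32 had entries, with 46 windows in all, and Epas1, Ndrg1 and Bnip3l had no entry. A core was present in 37 of the 46 windows (80.4%), against 14380 of 32851 windows in the whole table (43.8%). The member windows were also richer in G and C, with a median of 62.2% against 52.7%, and the part of base composition in the difference was not tested. Known HIF targets such as Slc2a1, Pdk1 and Vegfa were put on the list as such genes. The part of that choice in the difference was not tested either. Within the list, windows with a core were 11 of 12 (91.7%) for the members that were higher in cecal tumors and 22 of 28 (78.6%) for the other tested members. These are counts of windows and not of genes: of the members that were higher, Epas1 has no window and Ldha has 2. Aldoc, which was lower in cecal tumors, also has the core in both of its windows, whereas Tpi1, which was higher, has none in its window. A match describes the letters only and is not evidence of HIF binding in these tumors.

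Intensities are linear values made with MAS5, an Affymetrix summary method, and log2 folds are cecal minus duodenal on the scale log2(intensity + 16), with limma standard errors. The threshold was a Benjamini-Hochberg adjusted p of 0.05 over 13859 tested probe sets, and "rose" and "fell" are used of genes past it. Array medians were 164.6 to 181.8, and arrays correlated at 0.95 to 0.971 within a site and at 0.866 to 0.911 between sites (Pearson, log2 scale, over tested probe sets). Sex-linked genes put 1 female and 2 male mice at each site, and both female mice carry replicate number 2. All 9 genes of the stomach and pylorus surface list were lower in cecal tumors. For 8 of them this direction follows from the filter, which they passed only through the duodenal arrays. Their list had summed intensities of 620.9 to 846.5 in cecal and 56306 to 85287 in duodenal tumors. The part of such tissue in any member's value was not tested. In bulk tumor RNA, fewer cells of a type and less RNA per cell cannot be told apart. Precision is limited by the number of arrays.

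Of the 30 tested members, 12 rose in cecal tumors and 1 fell. Among all 8124 tested genes, 463 rose (5.7%) and 386 fell (4.75%). The median log2 fold was 0.50 over the tested members and -0.05 over all tested genes, and 25 of 30 members had a positive fold. In 18 members every cecal value lay above every duodenal value, and in 2 every cecal value lay below. Those patterns were found in 14.5% and 16.8% of all tested genes. Glycolysis members gave 7 rises and 1 fall among 17, with a median log2 fold of 0.47. Hypoxia members gave 5 rises and 0 falls among 13 by limma, with a median of 0.71. At an unadjusted p under 0.05, 11 glycolysis members were higher and 3 lower in cecal tumors, and 8 hypoxia members were higher and 0 lower, against 12.3% of all tested genes higher and 12.7% lower. Fitted with the replicate number as a block, 11 glycolysis members rose, in place of 7, and the background over all genes was 6.75% for rises and 5.99% for falls. With the 4 arrays of male mice alone, 3 members rose (Hk2, Egln3 and Higd1a) and 2 fell (Aldoc and Ldhb), where 2.71% of all tested genes rose and 3.31% fell. The other 9 members that rose in the full comparison then had adjusted p-values of 0.0531 to 0.214. Without cecal tumor 1, 6 members rose, and without cecal tumor 2, 5 did. In each of these fits 3.09% of all tested genes rose. The tested members had 25 further tested probe sets, over 16 genes. Compared with the brightest probe set of the same gene, 1 of them differed in sign (Vegfa) and 6 in the call (3 of Aldoa and 1 each of Ndrg1, Egln3 and Higd1a). Of all tested probe sets, 5.24% rose and 4.07% fell.

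**Figure D1:**
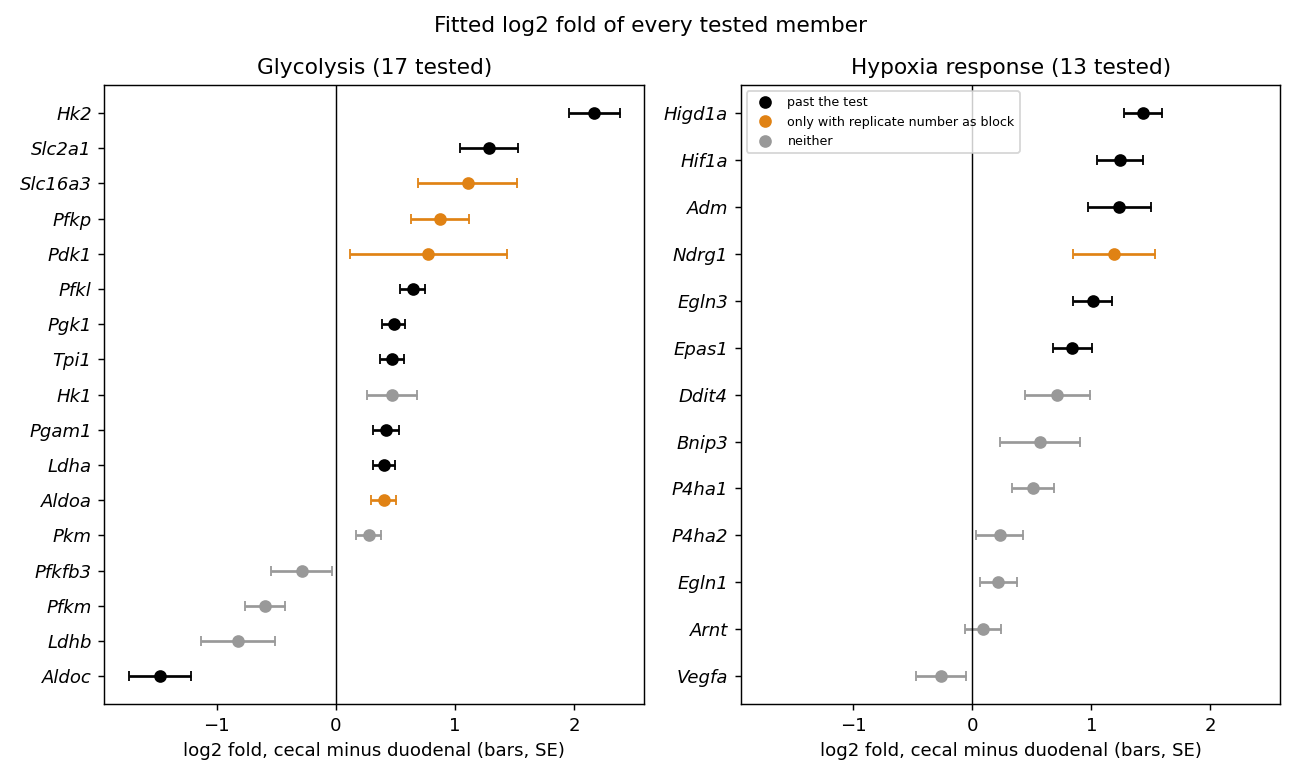
Fitted log2 fold, cecal minus duodenal, with its standard error for the 17 tested glycolysis members (left) and the 13 tested hypoxia members (right). Black points passed the test, orange points passed it only with the replicate number as a block, and grey points passed neither. Hk2 lies farthest to the right at 2.17 and Aldoc farthest to the left at -1.48.

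Glucose entry and the phosphorylation that follows it held the largest rise. Hk2 encodes a hexokinase, the enzyme that traps glucose in the cell as glucose phosphate. Its intensity was 4849.1, 3470.1 and 3212.3 in cecal tumors 1, 2 and 3, against 984.6, 912.4 and 630.5 in duodenal tumors 1, 2 and 3. The lowest cecal value was above the highest duodenal value. Hk2 averaged 3844 ± 880.1 in cecal and 842.5 ± 187.1 in duodenal tumors (SD, n = 3 each), with a log2 fold of 2.17 ± 0.21 (adjusted p = 0.000734). The other hexokinase on the list, Hk1, which many tissues express constitutively, had 1582.4, 1602.2 and 1295.2 in cecal and 1246.9, 763.9 and 1278.6 in duodenal tumors. Its cecal values lay above its duodenal values, the closest pair by a small margin, and its log2 fold of 0.47 ± 0.21 did not pass (adjusted p = 0.222).

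Slc2a1 encodes the facilitative glucose transporter found in many cell types and a known HIF target. It had 3433.5, 2615.7 and 1645.8 in cecal tumors, against 1110.2, 1001.3 and 894.7 in duodenal tumors. The groups did not overlap, and cecal tumor 3 lay nearest to the duodenal values. The log2 fold was 1.28 ± 0.25 (adjusted p = 0.0152), and the call was lost without cecal tumor 2 (adjusted p = 0.0627) or duodenal tumor 3 (0.0543).

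**Figure D2:**
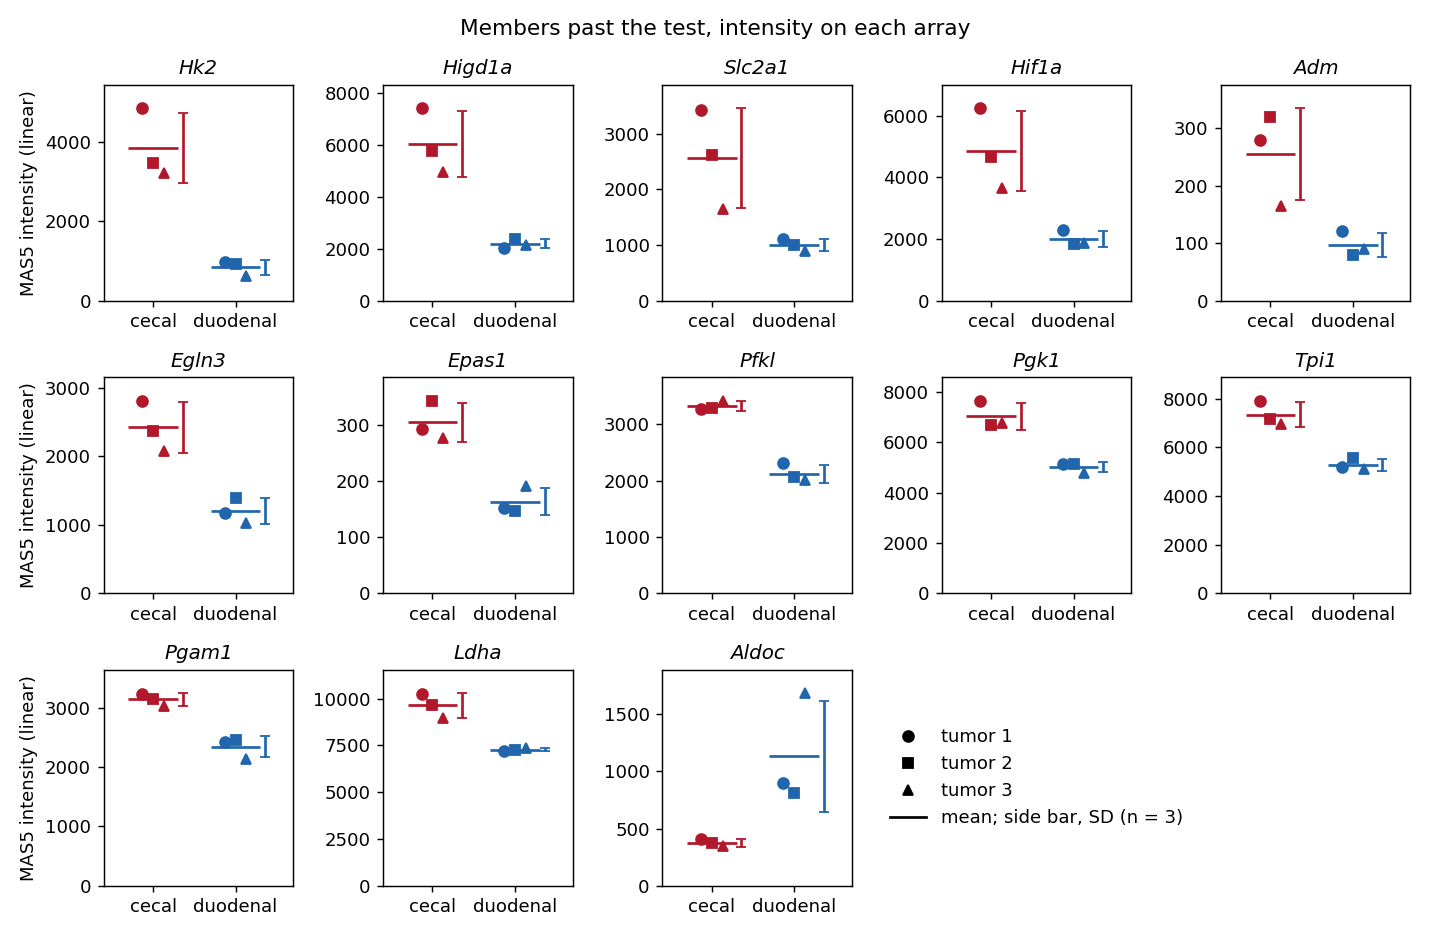
Linear MAS5 intensity on each array for the 13 members past the test, cecal tumors in red to the left and duodenal tumors in blue, with the tumor number as the symbol, the mean as a line and the SD (n = 3) as a side bar. All axes start at 0. No panel has overlapping groups, and Aldoc alone is lower in cecal tumors.

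Phosphofructokinase carries out the committed step of glycolysis and is built from liver (Pfkl), muscle (Pfkm) and platelet (Pfkp) type subunits, of which Pfkl passed the test. Pfkl had 3269.9, 3287.7 and 3422 in cecal tumors, against 2304, 2058.1 and 2007.4 in duodenal tumors. Cecal values were close to each other and all above the duodenal ones, and the log2 fold was 0.65 ± 0.11 (adjusted p = 0.00832). Pfkp had 3171.2, 2298.3 and 1759.9 in cecal and 1685.6, 1100.8 and 1099.3 in duodenal tumors. The groups did not overlap, but the spread within them was wide, and the log2 fold of 0.88 ± 0.24 did not pass (adjusted p = 0.0642). It passed with the replicate block (adjusted p = 0.00562), whereas the other Pfkp probe set, with a log2 fold of 0.87, passed neither without the block (0.0869) nor with it (0.0766).

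Pfkm was dimmer, with 186.6, 228.9 and 209.1 in cecal and 340.3, 264.4 and 368.8 in duodenal tumors. Its groups did not overlap, and its log2 fold of -0.59 ± 0.17 did not pass (adjusted p = 0.0691), except with array weights (0.0337) and without duodenal tumor 2 (0.0389). Pfkfb3, whose product makes the sugar phosphate that activates phosphofructokinase, was near the detection filter, with 78.9 to 142.2 in cecal and 96.1 to 148.2 in duodenal tumors (log2 fold -0.29 ± 0.26, adjusted p = 0.568).

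Aldolases cleave the fructose bisphosphate made by phosphofructokinase. Aldoc, the isozyme best known from brain, was the only member past the test that fell. It had 412.5, 369.2 and 343.5 in cecal tumors, against 894.6, 811 and 1685.5 in duodenal tumors. Cecal tumors were low and close together, while duodenal tumor 3 was far above the other 2 duodenal tumors. The log2 fold was -1.48 ± 0.26 (adjusted p = 0.0108). Aldoa, the isozyme of muscle and most other tissues, had 7756, 7010 and 6507.4 in cecal and 5273, 5070.3 and 5722.7 in duodenal tumors. Its groups did not overlap, and the brightest of its 4 tested probe sets just missed the threshold (log2 fold 0.40 ± 0.11, adjusted p = 0.0519; 0.0464 with the replicate block). The other 3 probe sets of Aldoa had log2 folds of 0.92, 0.67 and 0.66, all past the threshold (adjusted p = 0.00175, 0.0140 and 0.0357). Their mean with the brightest passed too (adjusted p = 0.0094).

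The enzymes of the next steps are Tpi1, Pgk1 and Pgam1, and all of them rose. Tpi1, which interconverts the triose phosphates, had 7930.2, 7163.3 and 6947.6 in cecal tumors, against 5188, 5572.8 and 5105.9 in duodenal tumors. The groups lay clearly apart, and the log2 fold was 0.47 ± 0.10 (adjusted p = 0.0209). Pgk1, an X-linked gene for the kinase of the first step that yields ATP, had 7661.8, 6696.9 and 6760.2 in cecal tumors, against 5123.6, 5148.7 and 4775.4 in duodenal tumors. Its log2 fold was 0.49 ± 0.10 (adjusted p = 0.0196), with no overlap. Both other Pgk1 probe sets passed too, with folds of 0.42 and 1.78 on the log2 scale (adjusted p = 0.0437 and 0.0148). The probe set with 1.78 varied widely, with 5235, 2544.1 and 2246.6 in cecal and 1203.5, 937.5 and 634.1 in duodenal tumors.

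Pgam1, the phosphoglycerate mutase, had 3244.4, 3160.2 and 3030.5 in cecal tumors, against 2434.2, 2467 and 2146.8 in duodenal tumors. Each group was narrow and the groups did not overlap, with a log2 fold of 0.42 ± 0.11 (adjusted p = 0.0473). Pgam1 lost the call when any 1 of the 6 arrays was left out (adjusted p = 0.0644 to 0.157). Tpi1 and Pgk1 each lost it without cecal tumor 1, cecal tumor 2 or duodenal tumor 1, with adjusted p-values of 0.0771 to 0.0849 for Tpi1 and 0.0625 to 0.0777 for Pgk1.

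Pkm, the pyruvate kinase that ends glycolysis, had 4998.6, 5984.2 and 5219.2 in cecal and 4328.7, 4749.7 and 4282.6 in duodenal tumors. All cecal values were above the duodenal ones, but the log2 fold of 0.27 ± 0.11 did not pass (adjusted p = 0.174). Gapdh, the dehydrogenase between Tpi1 and Pgk1 in the pathway, was named alone only by control probe sets, which stood outside the fit. It shares 2 tested probe sets with other genes, with log2 folds of 0.19 and 0.60 (adjusted p = 0.288 and 0.248). When they were added after the data had been seen, the 3′ Gapdh probe set gave 9968 ± 297.9 in cecal and 8201.5 ± 394.9 in duodenal tumors (SD, n = 3 each), a log2 fold of 0.28 (adjusted p = 0.0871). The 5′ and middle probe sets gave 0.26 and 0.23, neither past the threshold, and none of the 3 overlapped between sites. The ratio of 3′ to 5′ Gapdh signal, a sign of RNA integrity, was 0.736 to 0.769 in cecal and 0.713 to 0.798 in duodenal tumors. Eno2, the enolase best known from neurons, was too dim to test, with 27.6 to 41.5 in cecal and 7.3 to 23.9 in duodenal tumors. Gpi1 and Eno1 were not matched to a probe set of their own and were not analysed here.

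The remaining glycolysis members act on the fate of pyruvate. Ldha, the lactate dehydrogenase subunit known for making lactate from pyruvate, had 10275.2, 9685.2 and 8953.8 in cecal tumors, against 7204.9, 7252.1 and 7370.7 in duodenal tumors. The duodenal values were nearly equal, every cecal value was higher, and the log2 fold was 0.40 ± 0.09 (adjusted p = 0.0294). The call was lost without cecal tumor 1, cecal tumor 2, duodenal tumor 1 or duodenal tumor 2 (adjusted p = 0.0705 to 0.117). Ldhb, the subunit typical of heart, had 133.2, 203.9 and 85.5 in cecal and 250.5, 181.5 and 331.8 in duodenal tumors. These values overlapped, and the log2 fold of -0.82 ± 0.31 did not pass (adjusted p = 0.157), except on the male arrays (0.0484).

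Slc16a3, which exports lactate with a proton, had 701.3, 1018.4 and 536 in cecal and 541.3, 409 and 157.2 in duodenal tumors. The groups overlapped by the lowest cecal and highest duodenal values, and a log2 fold of 1.11 ± 0.42 did not pass (adjusted p = 0.154) unless the replicate number was a block (0.0292). Pdk1, a kinase that switches off pyruvate dehydrogenase and a known HIF target, varied most, with 1307, 658.2 and 252.4 in cecal and 627.1, 478 and 134.1 in duodenal tumors. The highest cecal value was 5.18 times the lowest, and the highest duodenal value 4.68 times the lowest. At both sites the order was tumor 1, tumor 2, tumor 3, so that the log2 fold of 0.78 ± 0.66 (adjusted p = 0.543) passed with the replicate block (0.0239).

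Both HIF alpha subunits on the list rose, and the beta subunit did not pass. Hif1a had 6255.5, 4660.1 and 3671 in cecal tumors, against 2301.1, 1842.8 and 1882.6 in duodenal tumors. Cecal values were well above the duodenal ones, although cecal tumor 1 was far above cecal tumor 3. The log2 fold was 1.24 ± 0.19 (adjusted p = 0.00681), and both other Hif1a probe sets passed as well, with 1.28 and 1.60. Epas1, the alpha subunit known from endothelium and from iron uptake in the gut, was dimmer, with 293.9, 343.8 and 276.7 in cecal and 152.3, 146.4 and 191.9 in duodenal tumors. The groups did not overlap, and the log2 fold was 0.84 ± 0.17 (adjusted p = 0.0173), lost without cecal tumor 1 (0.057), cecal tumor 2 (0.0798) or duodenal tumor 1 (0.0632). Arnt, the beta subunit, had 159 to 181.3 in cecal and 152.2 to 162.7 in duodenal tumors, with a log2 fold of 0.09 ± 0.15 (adjusted p = 0.768).

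Of the HIF prolyl hydroxylases, Egln3, itself known to be induced by HIF, had 2817.9, 2378.9 and 2082.2 in cecal tumors, against 1168.2, 1397.6 and 1024.9 in duodenal tumors. The groups lay apart and the log2 fold was 1.01 ± 0.16 (adjusted p = 0.00737). A dimmer Egln3 probe set gave 0.65, which did not pass (adjusted p = 0.0648). Egln1, regarded as the main oxygen sensor, had 933.4, 783.8 and 663.9 in cecal and 717.4, 678.8 and 625.9 in duodenal tumors. Its groups overlapped, with a log2 fold of 0.22 ± 0.15 (adjusted p = 0.446).

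Among the targets, Higd1a, a mitochondrial inner membrane protein induced by hypoxia, showed the largest difference of the hypoxia members. It had 7411.3, 5757.2 and 4931.4 in cecal tumors, against 2036.2, 2388.6 and 2157.5 in duodenal tumors. The lowest cecal value was above every duodenal value by a wide margin. The means were 6033 ± 1263 in cecal and 2194 ± 179 in duodenal tumors (SD, n = 3 each), and the log2 fold was 1.44 ± 0.16 (adjusted p = 0.00128). A dimmer Higd1a probe set gave 0.94, which did not pass (adjusted p = 0.0956).

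Adm encodes adrenomedullin, a peptide that widens blood vessels. It was dim, with 279.7, 319.3 and 164.8 in cecal tumors, against 120.7, 79.3 and 89.8 in duodenal tumors. The groups did not overlap, and the log2 fold was 1.23 ± 0.26 (adjusted p = 0.0236). Leaving out cecal tumor 1, cecal tumor 2, duodenal tumor 2 or duodenal tumor 3 ended the call (adjusted p = 0.0604 to 0.0973). Vegfa, the vascular endothelial growth factor and a classical HIF target, had 429.3, 508.4 and 350.9 in cecal and 668.3, 407.4 and 497 in duodenal tumors. Its groups overlapped, and the log2 fold was -0.26 ± 0.21 (adjusted p = 0.511). Another Vegfa probe set had a positive log2 fold of 0.14, so its direction was not settled.

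Ndrg1, a protein of differentiation and stress known to be induced by hypoxia, had 4163.2, 3711.6 and 1523.8 in cecal and 1488.9, 1064.5 and 1227.9 in duodenal tumors. Cecal tumors 1 and 2 were far above every duodenal tumor, whereas cecal tumor 3 was just above the highest of them. The log2 fold of 1.19 ± 0.35 did not pass (adjusted p = 0.0736), but it did with the replicate block (0.029) and without cecal tumor 3 (0.00223). Of the other 4 Ndrg1 probe sets 1 passed, with a log2 fold of 1.31 (adjusted p = 0.0481). Bnip3, a mitochondrial protein that promotes removal of mitochondria, had 1633.5, 904.8 and 573.2 in cecal and 757, 517 and 647 in duodenal tumors, with overlap and a log2 fold of 0.57 ± 0.34 (adjusted p = 0.366). The probe sets of Bnip3l are shared with its pseudogene. They gave log2 folds of 0.29, 0.01 and -0.01, none past the threshold (adjusted p = 0.189, 0.977 and 0.975), and name no gene on their own.

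Ddit4, an inhibitor of mTOR signalling induced by several stresses, had 1152, 1418.6 and 2107.8 in cecal and 905.6, 1251.9 and 673.2 in duodenal tumors. The groups overlapped and the log2 fold of 0.71 ± 0.27 did not pass (adjusted p = 0.158). P4ha1 and P4ha2 encode catalytic subunits of the enzyme that hydroxylates collagen. P4ha1 had 232.2, 233.2 and 245.8 in cecal and 205.1, 143.1 and 143 in duodenal tumors, without overlap (log2 fold 0.51 ± 0.18, adjusted p = 0.124). P4ha2 had 126.1 to 188.4 in cecal and 114.3 to 144.2 in duodenal tumors, with overlap (log2 fold 0.23 ± 0.19, adjusted p = 0.542).

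Isozymes and paralogs were set against each other as differences of log2 folds, computed within each array, for 8 pairs. With 3 against 3 arrays the exact two-sided permutation test cannot go below p = 0.1, so no pair could pass. In 5 pairs the within-array differences did not overlap between sites (exact permutation p = 0.1 each, adjusted over the 8 pairs 0.16). These were Aldoa minus Aldoc at 1.88, Hk2 minus Hk1 at 1.7, Pfkl minus Pfkm at 1.24, Ldha minus Ldhb at 1.22 and Egln3 minus Egln1 at 0.79. Overlapping pairs were Hif1a minus Epas1 at 0.40, P4ha1 minus P4ha2 at 0.28 and Pfkl minus Pfkp at -0.23 (exact permutation p = 0.3, 0.2 and 0.7).

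The members also varied among tumors of one site. Cecal tumor 3 had the lowest of the 3 cecal values in 22 of the 30 tested members (73.3%), against 32.3% of all tested genes. That held for 12 of 17 glycolysis members and 10 of 13 hypoxia members. Cecal tumor 1 had the highest cecal value in 17 of 30 (56.7%), against 31.6% of all tested genes. Duodenal tumor 3 had the lowest duodenal value in 16 of 30 (53.3%), against 35.2%. That was 11 of 17 glycolysis members and 5 of 13 hypoxia members, where duodenal tumor 2 was lowest in 6. The summed intensity of 11 proliferation genes was also lowest in the tumors numbered 3, at 17908 in cecal tumor 3, against 24960 and 24411 in cecal tumors 1 and 2, and at 14909 in duodenal tumor 3, against 22340 and 23000 in duodenal tumors 1 and 2. The brightest of the 11 was Pcna, at 9907.7, 9647.2 and 6033.9 in cecal tumors 1, 2 and 3. Not every gene followed the sum, and Birc5 and Bub1 were lowest in cecal tumor 2. None of these 11 genes passed the test between sites (1 had an unadjusted p under 0.05). Their part in the members' variation was not tested. These shares describe 6 tumors, and no test was made of them.

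**Figure D3:**
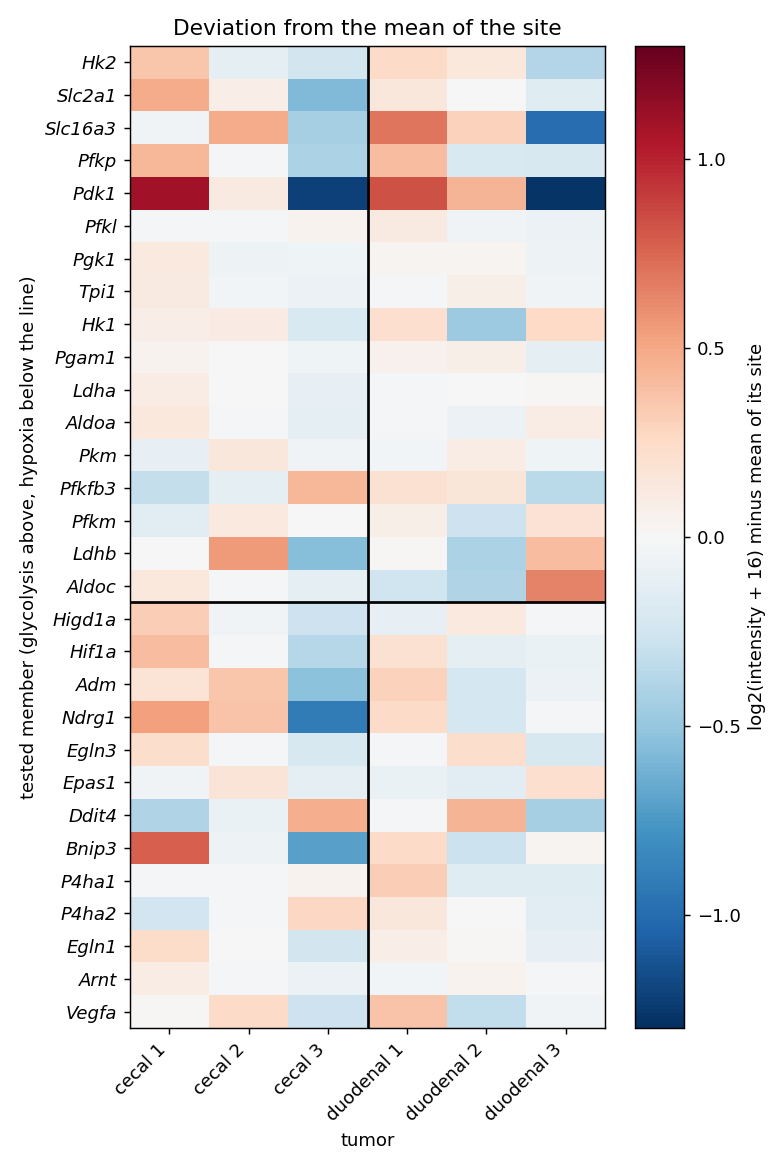
Deviation of each tested member, in log2(intensity + 16), from the mean of its own site, on each array, with cecal tumors to the left and glycolysis members above the horizontal line. Blue is below and red above the site's mean. Cecal tumor 3 is mostly blue, and Pdk1 is the row with the deepest colours at both sites.

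Neighbouring pathways, described with the same test, are set beside the members here. Among 9 other tested isozymes and transporters of glycolysis, 3 rose and 1 fell, against 5.7% and 4.75% of all tested genes. Slc16a1, a lactate and pyruvate transporter, had 4592.6, 3929.3 and 3245.6 in cecal tumors, against 2137.4, 2359.2 and 1511.9 in duodenal tumors (log2 fold 0.97 ± 0.19, adjusted p = 0.0176). Its groups did not overlap, and the call was lost without cecal tumor 1 (0.0745) or cecal tumor 2 (0.067). Bpgm, the bisphosphoglycerate mutase, and Slc5a1, the sodium-driven glucose transporter of the gut, rose with log2 folds of 0.53 and 0.74. Gpd1, which diverts glycolytic carbon to glycerol phosphate, fell with a log2 fold of -1.90 ± 0.40 (adjusted p = 0.0227). A dimmer Gpd1 probe set gave -0.50, which did not pass (adjusted p = 0.618). The calls of Bpgm, Slc5a1 and Gpd1 were each lost without any 1 of 4 or more arrays (adjusted p = 0.0503 to 0.109).

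Genes that take carbon away from or beyond glycolysis are read against the 10.5% of all tested genes that passed in either direction. Of 5 tested gluconeogenesis genes 1 fell, Pcx, the pyruvate carboxylase, with 243.5, 340.4 and 207.1 in cecal and 634.4, 453.4 and 835.4 in duodenal tumors (log2 fold -1.22 ± 0.25, adjusted p = 0.0208). Of 8 genes of pyruvate dehydrogenase and its regulators, the kinase gene Pdk3 rose (log2 fold 0.82), while Pdha1, a subunit of the enzyme, and the kinase gene Pdk4 fell (log2 fold -0.70 and -1.85). Pcx, Pdk3, Pdha1 and Pdk4 each lost the call without any 1 of 4 or more arrays (adjusted p = 0.0512 to 0.152). Pdk4 was near or below the filter level in cecal tumors, with 127.7, 92.8 and 29.1, against 200.6, 518.2 and 271.2 in duodenal tumors. The Pdk4 call was also lost with an offset of 1 (adjusted p = 0.0535), quantile normalization (0.0544), median centring (0.0507) or no intensity trend (0.0528). By limma, 0 of 15 tested genes of the tricarboxylic acid cycle, 0 of 6 of the pentose phosphate pathway and 0 of 7 of glycogen metabolism passed, with median log2 folds of -0.10, -0.05 and 0.05. With the replicate block 1 gene of the tricarboxylic acid cycle, Suclg2, passed (log2 fold 0.53, adjusted p = 0.0389). At an unadjusted p under 0.05, these 3 lists held 3, 2 and 1 genes. That unadjusted level was met by 12.3% of all tested genes as higher and by 12.7% as lower in cecal tumors. Of 10 regulators of glucose use 0 passed, and 2 had an unadjusted p under 0.05.

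**Figure D4:**
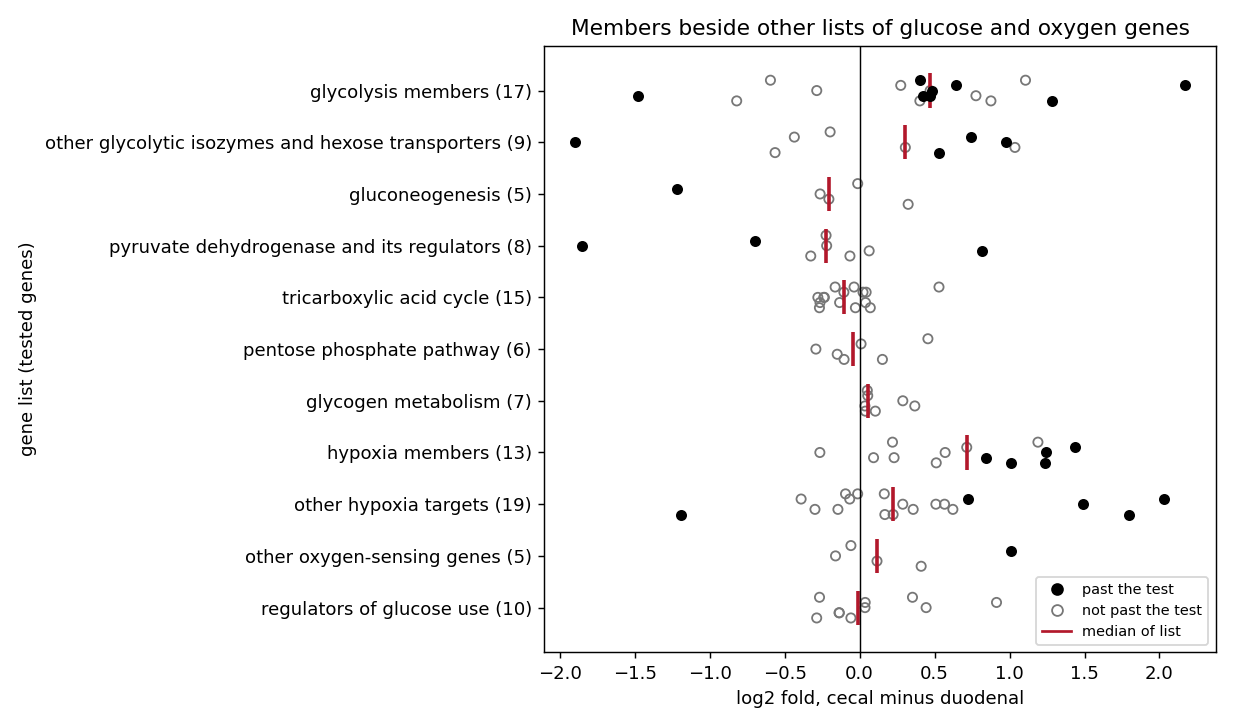
Fitted log2 fold, cecal minus duodenal, of every tested gene in the members' lists and in the other lists of glucose and oxygen genes. Filled points passed the test, open points did not, and red bars are list medians. The medians of the glycolysis and hypoxia members lie at 0.47 and 0.71, and those of the tricarboxylic acid cycle and pentose phosphate genes at -0.10 and -0.05.

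Among 19 other tested hypoxia targets, 4 rose and 1 fell, against 5.7% and 4.75% of all tested genes. Their median log2 fold was 0.22, and 12 of the 19 had a positive fold. Those that did not pass include Car9 (log2 fold 0.16, adjusted p = 0.72). Of the 4 that rose, Ak4 passed the filter only through the cecal arrays. Fam162a, a mitochondrial protein induced by hypoxia, had 8181.1, 6993.7 and 5515.6 in cecal tumors, against 2607.8, 2263.8 and 2377.7 in duodenal tumors (log2 fold 1.49 ± 0.15, adjusted p = 0.000917). As with Higd1a, cecal tumor 1 was highest, cecal tumor 3 lowest, and the groups far apart. Car12, a carbonic anhydrase at the cell surface, had 1021.1, 1051.6 and 876.1 in cecal tumors, against 380.7, 134.1 and 226.5 in duodenal tumors (log2 fold 2.03 ± 0.31, adjusted p = 0.00616). Ak4, a mitochondrial adenylate kinase, was below the filter level on all duodenal arrays, so that its direction follows from the filter. Its cecal level was at least 2.42-fold higher. The limma adjusted p of 0.00245 is of the fitted difference and not of this bound. Mxi1, an antagonist of Myc, rose with a log2 fold of 0.72, and Cxcr4, a chemokine receptor, fell with -1.19. Both are named after their values were seen. Of 5 other tested oxygen-sensing genes 1 passed, Hif3a, a further HIF alpha subunit. It too passed the filter only through the cecal arrays, so that its direction follows from the filter. Its cecal level was at least 1.19-fold higher, and the limma adjusted p of 0.020 is again not of the bound. The call of Mxi1 was lost without cecal tumor 1, cecal tumor 2 or duodenal tumor 3 (adjusted p = 0.0649 to 0.0873), and that of Hif3a without any 1 array other than duodenal tumor 2 (0.0607 to 0.0765).

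Markers of the cells that a tumor sample can hold are set beside the members. The 8 epithelial markers had summed intensities of 69930 to 73592 in cecal and 57624 to 65279 in duodenal tumors, and 2 of 8 rose, Cldn7 and Vil1 (log2 fold 0.50 and 0.58), with 4 of 8 higher at an unadjusted p under 0.05. Fibroblast markers summed to 20605 to 25276 in cecal and 13406 to 16853 in duodenal tumors, and 1 of 8, Col3a1, rose (log2 fold 0.73). All 8 fibroblast markers had a positive fold, with a median of 0.46, 5 were higher at an unadjusted p under 0.05, and 3 rose with the replicate block. Over all tested genes, 5.7% rose, and 12.3% were higher and 12.7% lower at an unadjusted p under 0.05. With the replicate block 6.75% of all tested genes rose and 5.99% fell. Among the cecal tumors the fibroblast sum was highest in tumor 3, where most members were lowest. Dcn, Col1a2 and Lum were highest in cecal tumor 1, and the other fibroblast markers in cecal tumor 3. Endothelial markers summed to 1490 to 1722 in cecal and 1405 to 1804 in duodenal tumors, and 0 of 8 tested passed by limma (2 at an unadjusted p under 0.05). Myeloid markers summed to 8545 to 11633 in cecal and 7144 to 8558 in duodenal tumors, and 0 of 9 tested passed (1 at an unadjusted p under 0.05). The erythroid markers Hba-a1, Alas2 and Slc4a1 were not above the filter level on any array. Of 12 tested genes that respond to sample handling, Dusp1 and Atf3 rose (log2 fold 0.90 and 0.71). With the replicate block 3 of the 12 rose and 3 fell. Those that fell were the heat shock genes Hspa1a, Hspa1b and Hsph1 (log2 fold -1.02, -1.01 and -0.73, adjusted p = 0.0159, 0.00364 and 0.0463). The calls of Vil1, Col3a1, Dusp1 and Atf3 were lost without cecal tumor 1 (adjusted p = 0.092, 0.058, 0.0869 and 0.123), and each also without at least 1 other array. The part of cell makeup and of handling in the members' differences was not tested.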

How the data were processed

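Total RNA of 6 tumors was hybridised to 1 Affymetrix array each, with groups and replicate numbers taken from sample titles. Linear probe set intensities were used as deposited, which the authors had made with MAS5, per the submitters' notes on processing, with the version, scaling target and detection calls not given in the sources used here. Their mean without the lowest and highest 2% was 500.2 on each array, so no further normalization was applied.

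Probe sets were named by the platform annotation, and 20380 of 22690 named a single gene. The 64 control probe sets stayed out. Testing required an intensity above the 40th percentile of the array (92.5 to 100.7 over the arrays) on 3 or more of 6 arrays, and a gene was represented by its tested probe set that was brightest on average. Values of log2(intensity + 16), a scale that understates the change of dim genes, were fitted in R 4.3.3 by lmFit and trended eBayes of limma 3.58.1. Tests were two-sided, and p-values were adjusted by Benjamini-Hochberg over 13859 probe sets. Where all arrays of a site were below the percentile, the fold is a lower bound against that percentile level. Members and lists were chosen with earlier results of these data known. Per-array values are given for members by rule, and other lists give up to 3 genes with the smallest p that passed.

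The same replicate numbers recur at both sites. For tumors sharing a number, deviations from the site mean had correlations of 0.273, 0.299 and 0.203, against -0.2 to -0.0258 for the rest. The numbers may thus pair the tumors, but this rests on the data alone, since the labels state no shared litter, day or batch. Results with the replicate number as a block are therefore given as an alternative. Both female mice have number 2. The main fit has no block. Promoter windows were searched and figures drawn in Python 3.11.15 with pandas 2.3.3 and matplotlib 3.10.9.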

Additional observations from a re-analysis of the deposited data

How the results depend on the processing

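Under 20 alternatives (offset, filter, normalization, variance model, array weights, block, probe set choice, adjustment, each array left out, male arrays alone), none of the 13 members past the test changed direction, and Hk2 and Aldoc kept the call in all. Hk2 and Aldoc each have 1 tested probe set, so the choice of probe set could not change theirs. Egln3 and Higd1a lost the call only with the dimmest tested probe set. With single arrays left out, members that rose numbered 5 to 13 and that fell 1 to 2, glycolysis members 2 to 7 and 1 to 2, hypoxia members 3 to 6 that rose, all genes 251 to 435 that rose and 196 to 412 that fell, and the hypoxia median was 0.59 to 0.90. On the male arrays alone, which leave 2 tumors a site, 3 members rose and 2 fell, 1 glycolysis member rose and 2 fell, 2 hypoxia members rose, and 220 genes rose. The pairing by replicate number, used as a block, gave 11 glycolysis members that rose in place of 7, and 17 members in all in place of 12, with 6 hypoxia members. The added members were Slc16a3, Pfkp, Pdk1, Aldoa and Ndrg1, and it moved no other count of members or of all genes by over 1.5 times. Without an intensity trend in the variance model, 3 glycolysis members rose in place of 7, and 8 members in all in place of 12. Over all tested genes 427 then rose in place of 463. Tpi1, Pgk1, Pgam1 and Ldha lost the call in that limma fit (adjusted p = 0.0544 to 0.0882). Array weights gave 2 members that fell, both of glycolysis, and 592 genes that fell. The hypoxia median was 0.64 with all 6 arrays above the filter and 0.65 with the dimmest probe sets.

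Changes of sign were seen for values that had not passed. With the dimmest probe set the log2 folds were 0.14 for Vegfa, 0.0811 for Sdha and -0.0374 for Pgd, with array weights -0.0205 for Pgm2, and with median centring 0.000786 for Tagln. With single arrays left out, the ranges were -0.00774 to 0.158 for Csf1r, -0.238 to 0.0293 for Acta2, -0.375 to 0.12 for Tagln, -0.0539 to 0.275 for Acta1, -0.379 to 0.104 for Mcm6 and -0.454 to 3.06e-05 for the difference Pfkl minus Pfkp. The cause of these changes was not tested. Adding the control probe sets was chosen after the data were seen. Members near the filter level, such as Pfkfb3, P4ha2, Arnt and Adm, have little signal over background, and without detection calls no difference there can be called absent.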
